A study of Mus musculus with 8 samples.

Results

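Imprinted growth genes were followed in the epididymal fat of 8 male C57BL/6 mice, 1 array per mouse. The set was a list of 10 genes (Peg10, Mest, Peg3, Sgce, Nnat, Cdkn1c, Plagl1, Igf2, H19 and Dlk1). A gene was read from the probe set annotated to its symbol alone, and where several existed, from the one with the highest mean over the 8 arrays. This gave values for 9 of the 10 genes, out of 22180 genes with such a probe set. H19 had none, since the 1 probe set carrying its symbol also carries a second one, so H19 is given no value. The 9 genes all lay above the limit below which the dimmest 33.3% of genes were left out, and so belonged to the 14787 genes tested.

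The 4 prednisolone mice (GC+) received the synthetic glucocorticoid prednisolone every day in sweet potato puree for 4 weeks from 6 weeks of age, at a dose the labels write as 40 mg/kg/m2. The 4 vehicle mice (GC-) received the puree alone. All mice were weaned at 3 weeks onto high-fat food with much n-6 fat (45% of kcal as fat), and the left fat pad was taken at 10 weeks. The labels call the samples biological replicates, and mice are named below by group and replicate number.

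An imprinted gene is transcribed from the copy inherited from 1 parent, while the other copy is kept silent, usually through DNA methylation laid down in egg or sperm. Many such genes control fetal and placental growth, and several continue to act in fat. There Dlk1 is known as a brake on adipocyte differentiation, Mest as a gene whose level follows the expansion of the mouse fat pad, and Igf2 as a growth factor. In mice, Plagl1 encodes a transcription factor that regulates a network of other imprinted genes. The arrays measure the sum of both parental copies.

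Sequence context is shown for 3 genes with some of the highest correlations across mice (Nnat, Plagl1 and Dlk1) and for Mest, which did not follow them. Each window runs from 250 bases before to 50 bases after a RefSeq transcript start in GRCm38.p6, and capitals mark TGCCGC or its reverse complement, the hexamer bound by ZFP57, a zinc finger protein that keeps imprints methylated.
Nnat (chr2:157559828-157560127, plus strand): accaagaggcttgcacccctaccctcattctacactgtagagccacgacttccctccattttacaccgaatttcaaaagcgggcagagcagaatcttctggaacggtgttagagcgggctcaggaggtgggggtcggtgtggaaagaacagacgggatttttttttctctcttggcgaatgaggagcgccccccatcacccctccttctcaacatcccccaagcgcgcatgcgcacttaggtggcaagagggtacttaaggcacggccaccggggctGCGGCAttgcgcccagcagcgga
Plagl1 (chr10:13090582-13090881, plus strand): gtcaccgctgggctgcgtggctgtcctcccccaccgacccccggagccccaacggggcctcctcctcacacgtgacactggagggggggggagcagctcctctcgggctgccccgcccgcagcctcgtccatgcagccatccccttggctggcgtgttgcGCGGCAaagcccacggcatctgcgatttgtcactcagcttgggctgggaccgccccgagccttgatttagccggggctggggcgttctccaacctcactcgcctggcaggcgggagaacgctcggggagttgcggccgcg
Dlk1 (chr12:109452573-109452872, plus strand): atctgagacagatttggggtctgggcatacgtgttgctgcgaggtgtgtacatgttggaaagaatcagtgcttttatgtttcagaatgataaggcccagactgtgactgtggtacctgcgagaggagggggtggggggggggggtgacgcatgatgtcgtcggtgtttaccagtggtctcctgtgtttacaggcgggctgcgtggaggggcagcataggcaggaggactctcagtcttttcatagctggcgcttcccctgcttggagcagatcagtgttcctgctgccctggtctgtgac
Mest (chr6:30737800-30738099, plus strand): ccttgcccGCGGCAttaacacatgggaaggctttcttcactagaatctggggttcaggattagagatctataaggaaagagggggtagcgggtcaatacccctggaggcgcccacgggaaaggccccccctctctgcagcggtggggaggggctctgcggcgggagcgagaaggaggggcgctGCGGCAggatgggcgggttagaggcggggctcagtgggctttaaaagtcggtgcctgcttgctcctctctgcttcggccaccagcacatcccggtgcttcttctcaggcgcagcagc

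The table of windows held 6 of the 10 genes, with 11 windows, and Peg10, Sgce, Cdkn1c and H19 had no entry in it. The hexamer, searched on both strands, was present in 5 of the 11 windows, belonging to Mest, Nnat, Plagl1 and Igf2, and in 11.6% of the 32851 windows in the table. Of these 5, 2 are Mest windows that overlap each other almost completely. The windows shown held 17 CpG dinucleotides for Nnat, 26 for Plagl1, 9 for Dlk1 and 17 for Mest, against a median of 7 over all windows. The hexamer itself holds a CpG, and the 11.6% was not matched for CpG content. A match is a description of the letters and not of a bound site.

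Adipocyte markers were bright on every array, with Adipoq between 11.74 and 12.29 and Fabp4 between 13.72 and 13.97 on the deposited log2 scale. The mice differed widely in epididymal transcripts in both groups, and Gpx5 ranged from 4.19 to 13.81. The epididymis marker score, the mean over 16 tested markers of each value minus its 8-array mean, exceeded 1 in prednisolone mouse 2 (3.32) and in vehicle mice 1 and 4 (2.91 and 1.73). It lay between -2.41 and 0.22 in the other 5 mice. Macrophage markers were higher on average with prednisolone in 12 of 12 tested members, beside 54.6% of all tested genes. Their scores were 0.08 to 0.37 in prednisolone mice and -0.55 to 0.44 in vehicle mice. With limma, 0 of the 14787 tested genes (0.0%) passed a Benjamini-Hochberg adjusted p of 0.05, the lowest adjusted p was 0.713, and 842 genes (5.69%) had an unadjusted p under 0.05. The genes were chosen by a list drawn up with the group differences of these arrays known, so those differences are descriptions without a test. Each difference is the prednisolone mean minus the vehicle mean, in log2 units, with limma's standard error (SE) and n = 4 per group, and the number of arrays limits their precision. In whole tissue, a lower share of the expressing cells and less RNA per cell cannot be told apart.

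Peg10 stood about 2-fold higher with prednisolone and was the gene of the set with the largest group difference, while its direct neighbour Sgce differed little. Cdkn1c was the second gene in which the groups were apart. Mest, Nnat, Sgce and Dlk1 had higher means with prednisolone, and Peg3, Plagl1 and Igf2 had lower ones, all with overlapping groups. In all, 6 of the 9 genes were higher and 3 lower, with a median difference of 0.12, beside 54.6% of tested genes above 0 and a median of 0.018 over all of them. That median was -0.01, with 4 genes higher, when vehicle mouse 1 was left out, and 0.01 without the 3 mice of epididymis score over 1. In 2 of the 9 the groups did not overlap and prednisolone was higher, which held for 1.81% of all tested genes (3.2% in either direction).

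**Figure D1:**
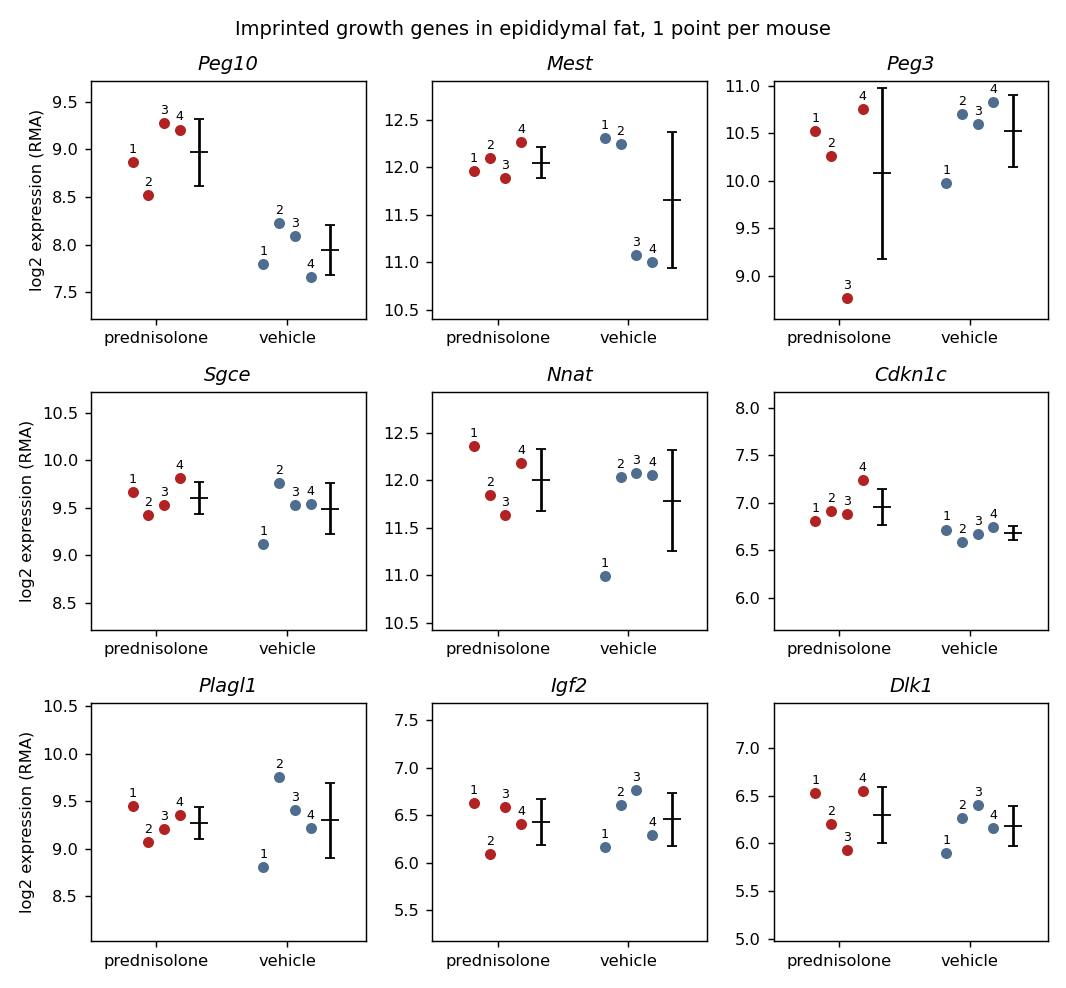
Log2 expression of the 9 imprinted growth genes in each mouse, prednisolone left and vehicle right. Points are mice with their replicate number, and bars are the mean ± SD of 4 mice; every panel spans the same 2.5 log2 units, and only Peg10 and Cdkn1c have groups that do not overlap.

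Peg10 encodes a Gag-like RNA-binding protein derived from a retrotransposon and is needed for the mouse placenta. It read 8.87, 8.52, 9.28 and 9.21 in prednisolone mice 1 to 4, against 7.79, 8.23, 8.09 and 7.66 in vehicle mice 1 to 4. The lowest prednisolone mouse thus lay 0.28 above the highest vehicle mouse. Group means were 8.97 ± 0.35 with prednisolone and 7.94 ± 0.26 with vehicle (SD), a difference of 1.03 ± 0.19 (SE) or 2.04-fold. The difference was 0.92 to 1.18 when single mice were left out and 0.96 without the 3 mice of high epididymis score.

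Sgce, which encodes epsilon-sarcoglycan of the dystrophin-associated membrane complex, is the protein-coding gene next to Peg10, and both are expressed from the paternal copy. It read 9.66, 9.42, 9.53 and 9.81 in prednisolone mice and 9.12, 9.76, 9.53 and 9.54 in vehicle mice, so that only vehicle mouse 1 lay outside a common range. Its difference was 0.12 ± 0.14, and -0.01 without vehicle mouse 1. Within groups Peg10 and Sgce had a correlation of deviations from the group mean of 0.55 over the 8 mice (Spearman 0.40), with exact permutation p-values of 0.174 and 0.339 and adjusted ones of 0.433 and 0.724. Without the 2 mice farthest from the median of Peg10 it was 0.64.

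Around this pair, the serine protease inhibitor Tfpi2, imprinted in mouse placenta, also had groups that did not overlap. It read 7.84, 7.78, 7.82 and 8.00 in prednisolone mice, against 7.29, 7.71, 7.53 and 6.93 in vehicle mice. The 4 vehicle mice fell in the same order for Tfpi2 and for Peg10, with mouse 4 lowest and mouse 2 highest. Its difference of 0.49 ± 0.16 did not pass (limma adjusted p = 0.768), and it was 0.26 without the 3 mice of high epididymis score. The deviations of Peg10 and Tfpi2 had a correlation of 0.69 (Spearman 0.71, exact permutation p = 0.0260 and 0.0521, adjusted p = 0.130 and 0.182), and of 0.59 without the 2 mice farthest from the median of Peg10. That of Peg10 and the paraoxonase Pon2 was 0.91 (Spearman 0.83, exact permutation p = 0.0174 and 0.0260, adjusted p = 0.102 and 0.152), and 0.88 without the 2 farthest mice. The paraoxonases Pon2 and Pon3 differed by 0.15 ± 0.13 and 0.16 ± 0.16, the third paraoxonase Pon1 by -0.46 ± 0.31, with vehicle mouse 4 highest at 7.05, and the phosphatase regulator Ppp1r9a by -0.06 ± 0.10. Of 6 tested neighbours of Peg10 and Sgce 3 were higher and 3 lower, 0 passed the adjusted threshold, and 1 was higher at an unadjusted p under 0.05, beside 3.37% of all tested genes. Of 6 other genes of the sarcoglycan and dystroglycan complex 4 were higher and 2 lower, led by beta-sarcoglycan Sgcb at 0.35 ± 0.18 and delta-sarcoglycan Sgcd at 0.27 ± 0.13, with 0 under either threshold in limma.

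Other members of the retrotransposon Gag-like family lay closer to 0 than Peg10. Rtl8c differed by 0.20 ± 0.27 and Rtl5 by 0.11 ± 0.14 (limma adjusted p = 0.867 and 0.846), and of the 4 family members tested beside Peg10, 3 were higher and 1 lower, over a range of -0.06 to 0.20. Without vehicle mouse 1, at 8.56 the lowest for Rtl8c, that gene's difference was -0.06.

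Cdkn1c encodes p57, an inhibitor of cyclin-dependent kinases, and is expressed from the maternal copy. It read 6.81, 6.91, 6.88 and 7.24 in prednisolone mice, against 6.72, 6.59, 6.67 and 6.75 in vehicle mice. The groups were separated by 0.07, far less than in Peg10. Means were 6.96 ± 0.19 with prednisolone and 6.68 ± 0.07 with vehicle (SD), a difference of 0.28 ± 0.10 (SE), which was 0.18 without prednisolone mouse 4. The other CDK inhibitors lay between -0.18 and 0.11, with Cdkn1b (p27) at -0.18 ± 0.13 and Cdkn2b (p15) at 0.11 ± 0.15, and 0 of those 6 passed limma at the adjusted or the unadjusted threshold.

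In the imprinted domain of Cdkn1c, of 8 tested neighbours 4 were higher and 4 lower. The potassium channel gene Kcnq1 read 6.76, 6.86, 6.22 and 6.69 in prednisolone mice, against 8.70, 6.88, 6.42 and 7.99 in vehicle mice. Its difference was -0.86 ± 0.46 (limma adjusted p = 0.768), and -0.09 without the 3 mice of high epididymis score. Its highest mice were vehicle mice 1 and 4, both of high score. Prednisolone mouse 2, with the highest score of all mice, read 6.86, and vehicle mouse 2, with the lowest score, read 6.88. Whether Kcnq1 follows epididymal transcripts was not tested. The long noncoding RNA Kcnq1ot1, which silences this domain on the paternal copy, differed by -0.03 ± 0.16. Tssc4 differed by -0.19 ± 0.09, the tetraspanin Cd81 by -0.19 ± 0.11, the organic cation transporter Slc22a18 by 0.20 ± 0.15, the sterol-binding protein Osbpl5 by 0.15 ± 0.13 and the histone chaperone Nap1l4 by 0.13 ± 0.07. None of these passed limma, adjusted or unadjusted.

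Mest, a paternally expressed hydrolase-fold protein of the endoplasmic reticulum, split the vehicle group into 2 pairs of mice. It read 11.96, 12.09, 11.88 and 12.26 in prednisolone mice, and 12.31, 12.24, 11.07 and 11.00 in vehicle mice. Vehicle mice 1 and 2 thus lay near the highest prednisolone mouse, and vehicle mice 3 and 4 about 1 log2 unit lower. The SD was 0.17 in the prednisolone group and 0.72 in the vehicle group. The difference was 0.39 ± 0.32, and without single mice it ran from 0.17 to 0.61.

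Klf14, a Krüppel-like transcription factor gene expressed from the maternal copy near Mest, showed the same pairs. It read 7.59, 7.57, 7.12 and 7.65 in prednisolone mice, and 7.68, 7.63, 6.97 and 6.94 in vehicle mice. Vehicle mice 3 and 4 were the lowest for both genes, and prednisolone mouse 3 was the lowest of its group for both, by more in Klf14. Because the mice fall into clusters, no correlation is given for this pair. Copg2, a coat protein gene whose annotated span overlaps that of Mest, read 9.79, 9.92, 9.77 and 9.89 with prednisolone, and 10.13, 9.85, 9.63 and 9.94 with vehicle, and did not separate the same mice.

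Sfrp5, Bmp3, Npr3 and Naalad2, genes known with Mest from expanding mouse fat pads, differed among themselves. Npr3, the natriuretic peptide clearance receptor, read 12.59, 12.62, 12.83 and 12.88 in prednisolone mice, and 12.51, 12.81, 12.48 and 12.12 in vehicle mice. It was the only one of the 4 with vehicle mice 3 and 4 both below mice 1 and 2. Vehicle mouse 3 was only just below vehicle mouse 1 (12.48 against 12.51), unlike in Mest. Sfrp5, a secreted Wnt antagonist, read 11.12, 10.93, 10.12 and 11.78 in prednisolone mice, against 9.62, 10.50, 10.45 and 10.03 in vehicle mice. Vehicle mouse 1 was thus the highest of its group for Mest and the lowest for Sfrp5. The difference of Sfrp5 was 0.84 ± 0.34 and that of the bone morphogenetic protein Bmp3 0.60 ± 0.29 (limma adjusted p = 0.768 for each). All 4 of these genes had means at or above those of vehicle, with a median difference of 0.42, and 0 passed the adjusted and 1 the unadjusted threshold, beside 3.37% of all tested genes higher at that threshold. Without prednisolone mouse 4 the difference of Bmp3 was 0.37.

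Peg3, a paternally expressed zinc finger protein, varied most between mice of 1 group. It read 10.52, 10.26, 8.77 and 10.76 in prednisolone mice, and 9.98, 10.70, 10.60 and 10.83 in vehicle mice. Prednisolone mouse 3 lay 2.06 below the highest mouse, and the other 7 mice lay within the range from 9.98 to 10.83. The difference of -0.45 ± 0.42 was -0.01 without that mouse. Zim1, a maternally expressed zinc finger gene beside Peg3, was also lowest in prednisolone mouse 3. It read 7.34, 7.34, 5.62 and 7.29 in prednisolone mice, and 6.81, 7.04, 7.79 and 8.17 in vehicle mice. The deviations of both genes from their group means had a correlation of 0.88 (Spearman 0.76, exact permutation p = 0.0312 and 0.0503, adjusted p = 0.135 and 0.182), which was 0.29 without the 2 mice farthest from the median of Peg3, so it rests on them.

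**Figure D2:**
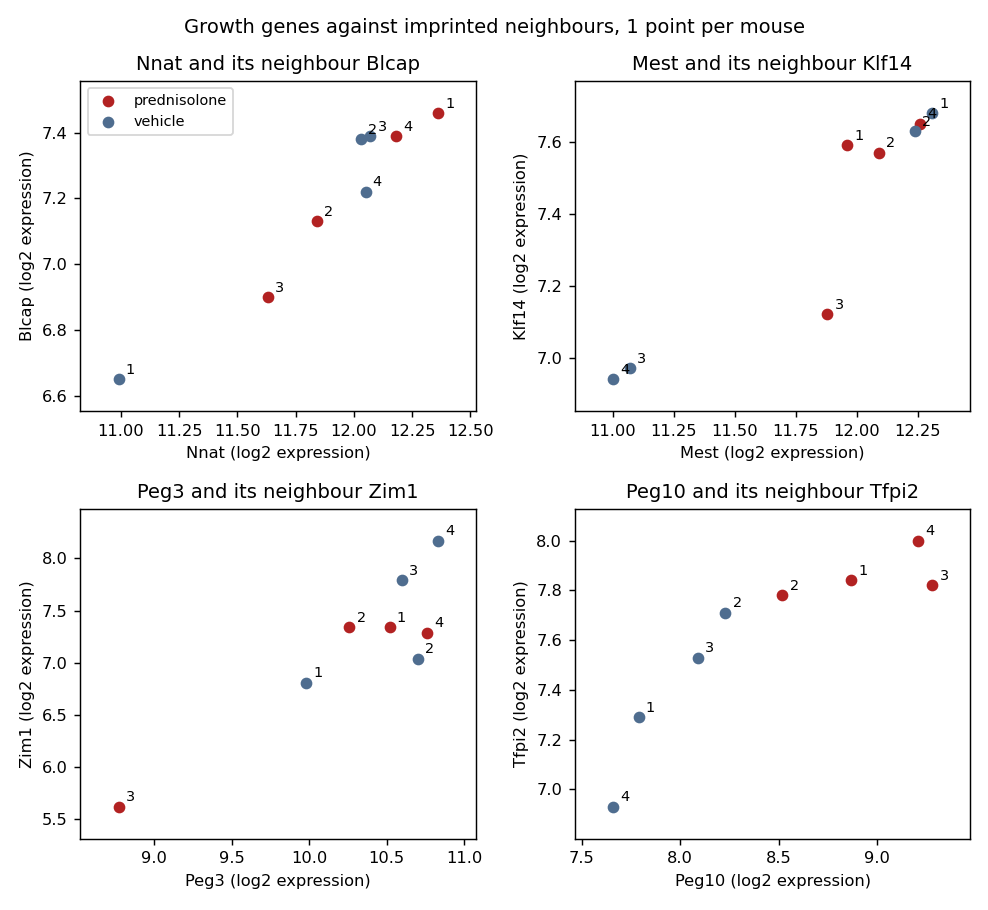
Log2 expression of 4 growth genes (horizontal axes) against an imprinted neighbour (vertical axes), 1 numbered point per mouse, prednisolone in red and vehicle in blue. Nnat and Blcap lie along a line, vehicle mice 3 and 4 are low for Mest and Klf14, prednisolone mouse 3 is low for Peg3 and Zim1, and the groups lie apart for Peg10 and Tfpi2.

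Nnat encodes neuronatin, a small membrane protein of the endoplasmic reticulum, and is expressed from the paternal copy. It read 12.36, 11.84, 11.63 and 12.18 in prednisolone mice, and 10.99, 12.03, 12.07 and 12.05 in vehicle mice. Vehicle mouse 1 lay below every other mouse, and the other 7 lay between 11.63 and 12.36. The difference of 0.22 ± 0.27 was -0.05 without it. A second Nnat probe set had the same lowest mouse, with 9.07, 8.65, 8.46 and 9.09 in prednisolone mice and 7.86, 8.98, 9.28 and 8.91 in vehicle mice. Blcap, whose annotated span overlaps that of Nnat, read 7.46, 7.13, 6.90 and 7.39 in prednisolone mice, and 6.65, 7.38, 7.39 and 7.22 in vehicle mice. The deviations of Nnat and Blcap had the highest correlation among the 35 pairs of growth genes and tested neighbours, 0.98 (Spearman 0.93), with exact permutation p-values of 0.0052 and 0.0104 and adjusted ones of 0.061 and 0.121. It was 0.88 without the 2 mice farthest from the median of Nnat and 0.95 to 0.99 without single mice. Of the 35 pairs, 11 had an unadjusted p under 0.05 and 0 passed adjustment, with 0.060 as the lowest adjusted p, that of Sgce with Ppp1r9a (0.80, Spearman 0.90, exact permutation p = 0.0017 and 0.0035, where 0.0017 is the smallest the test can give). Their correlation was 0.61 without the 2 mice farthest from the median of Sgce. Cdkn1c and its neighbour Nap1l4 ran opposite ways, at -0.82 (Spearman -0.83, exact permutation p = 0.0156 and 0.0226, adjusted p = 0.102 and 0.152), and at -0.73 without the 2 farthest mice. Both genes varied little between mice, with residual SDs of 0.14 and 0.08 against a median of 0.17 over tested genes. Whether probes of the overlapping Nnat and Blcap share signal was not tested. The share of other gene pairs with an unadjusted p under 0.05 was not computed.

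Plagl1, the zinc finger factor of the imprinted network, had nearly equal group means. It read 9.45, 9.07, 9.21 and 9.35 in prednisolone mice, and 8.81, 9.75, 9.41 and 9.22 in vehicle mice, so that both extremes were vehicle mice. The difference was -0.03 ± 0.19. Its relatives Plagl2 and Plag1 differed by -0.17 ± 0.13 and -0.06 ± 0.13 (limma adjusted p = 0.777 and 0.921). Of 3 tested neighbours of Plagl1, 2 were higher and 1 lower, from -0.06 to 0.12.

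Igf2, the insulin-like growth factor expressed from the paternal copy, was dim. It read 6.63, 6.09, 6.59 and 6.41 in prednisolone mice, and 6.17, 6.61, 6.77 and 6.29 in vehicle mice, with a difference of -0.03 ± 0.17. These values stand close to 5.82, the limit set for dim genes, where RMA values compress differences. Of its system, the ligand Igf1 differed by -0.05 ± 0.15, the receptor substrate Irs1 by 0.38 ± 0.21 and the adaptor Grb14 by 0.26 ± 0.15. The IGF binding proteins were 4 higher and 3 lower, with Igfbp5 at 11.25 ± 0.17 with prednisolone and 10.75 ± 0.39 with vehicle (0.50 ± 0.19, limma adjusted p = 0.768) and Igfbp3 at 0.39 ± 0.21. Leaving out 1 mouse gave 0.32 for Igfbp5 (without vehicle mouse 4) and 0.24 for Irs1 (without vehicle mouse 1). Among receptors and adaptors 5 were higher and 2 lower. No gene of the system passed the adjusted threshold, and Igfbp5 alone was under the unadjusted one, beside 3.37% of all tested genes higher there. Of 3 tested neighbours of Igf2 and H19, 2 were higher and 1 lower, from -0.01 to 0.21.

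Dlk1, the preadipocyte factor expressed from the paternal copy, was dim too. It read 6.53, 6.20, 5.93 and 6.55 in prednisolone mice, and 5.90, 6.27, 6.40 and 6.16 in vehicle mice, a difference of 0.12 ± 0.17 with overlapping groups. Rian, a maternally expressed noncoding RNA of the same domain, read 7.86, 7.59, 7.54 and 7.89 in prednisolone mice, and 6.50, 7.56, 8.25 and 7.02 in vehicle mice. Both genes were lowest in prednisolone mouse 3 and vehicle mouse 1 of their groups and highest in prednisolone mouse 4 and vehicle mouse 3. Their deviations had a correlation of 0.72 (Spearman 0.69), with exact permutation p-values of 0.0052 and 0.0035, both 0.061 after adjustment, and 0.65 without the 2 mice farthest from the median of Dlk1. Of the Notch family, to which Dlk1 is related, 4 genes were higher and 5 lower, with Notch1 at -0.32 ± 0.17 and its ligand Jag1 at 0.25 ± 0.13, and 0 passed limma, adjusted or unadjusted.

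The differences between mice within a group showed which genes varied together. The group contrast does not enter them, but earlier results of these data were known when the genes were listed. The residual SD was 0.69 for Peg3, 0.52 for Mest, 0.44 for Nnat, 0.31 for Peg10 and 0.30 for Plagl1, at percentiles of 96.1, 93.5, 90.8, 81.6 and 80.9 among tested genes, whose median was 0.17. It was 0.26 for Igf2 and Dlk1, 0.22 for Sgce and 0.14 for Cdkn1c. Of the 9 genes, 6 had their lowest vehicle value in vehicle mouse 1, namely Peg3, Sgce, Nnat, Plagl1, Igf2 and Dlk1.

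Sgce, Plagl1, Nnat, Dlk1 and Peg3 made up the pairs with the highest correlations from mouse to mouse. Of 36 pairs, 25 had a positive correlation of deviations and 11 a negative one, with a median of 0.28. The 5 pairs over 0.8 were Sgce with Plagl1 (0.92) and with Nnat (0.84), Nnat with Dlk1 (0.85) and with Plagl1 (0.81), and Peg3 with Dlk1 (0.87). Peg10 with Igf2, Peg3 with Nnat and Plagl1 with Igf2 followed at 0.73 each, and Sgce with Dlk1 at 0.71. In that order, they were 0.44, 0.17, 0.80 and 0.59 without the 2 mice farthest from the median of the first gene. Peg3 with Nnat thus rests largely on those mice. By an exact permutation test over the 576 orders of mice within groups, 5 pairs had an unadjusted p under 0.05. None passed adjustment over the 36 pairs, with 0.172 as the lowest adjusted p. These 5 were not the same as the 5 pairs over 0.8. Sgce with Nnat was not among them (exact permutation p = 0.0521, adjusted 0.257), and Peg3 with Nnat was (0.0191, adjusted 0.172). How often pairs of other tested genes reach an unadjusted p under 0.05 was not computed. Sgce and Plagl1 had a Spearman correlation of 0.74 (exact permutation p = 0.0174 for Pearson and 0.0868 for Spearman, adjusted 0.172 and 0.464) and a Pearson correlation of 0.75 without the 2 mice farthest from the median of Sgce. Nnat and Dlk1 had a Spearman correlation of 0.71 (exact permutation p = 0.0087 and 0.0625, adjusted 0.172 and 0.464) and a Pearson correlation of 0.68 without the 2 farthest mice. Without the 2 mice farthest from the median of the first gene, the correlation was 0.62 for Nnat with Plagl1, 0.53 for Sgce with Nnat and 0.46 for Peg3 with Dlk1, so the last 2 rest largely on those mice. Leaving out vehicle mouse 1 gave the lowest value for Sgce with Nnat, 0.56, and for Nnat with Plagl1, 0.47. Mest, whose vehicle mice fall into clusters, was highest in vehicle mouse 1.

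**Figure D3:**
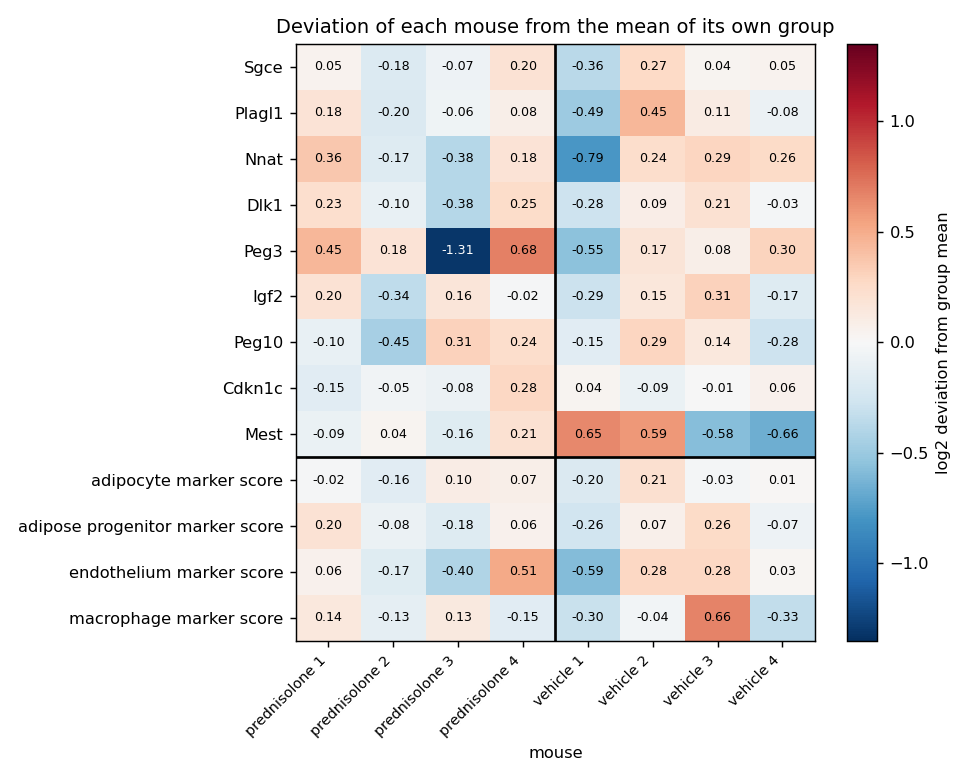
Deviation of each mouse (columns) from the mean of its own group on the log2 scale, for the 9 growth genes (upper rows) and for 4 cell type marker scores (lower rows). Blue is below and red above the group mean; vehicle mouse 1 is below it for 7 of the 9 genes and for all 4 scores, and Peg3 reaches -1.31 in prednisolone mouse 3.

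Markers of the cell types in fat moved with several of these genes. In vehicle mouse 1 the scores of adipocyte (-0.27), progenitor (-0.29) and endothelial markers (-0.51) were the lowest of all 8 mice, beside an epididymis score of 2.91. Dlk1 went with the progenitor score with a correlation of deviations of 0.91 (Spearman 0.81, exact permutation p = 0.0069 and 0.0174, adjusted 0.083 and 0.138) and of 0.84 without the 2 mice farthest from its median. Dlk1 went as closely with the endothelial score, at 0.90 (Spearman 0.88, exact permutation p = 0.0035 and 0.0069, adjusted 0.083 and 0.138) and at 0.77 without the 2 farthest mice. Sgce went with the endothelial score at 0.89 (Spearman 0.86, exact permutation p = 0.0122 and 0.0191, adjusted 0.088 and 0.138) and at 0.81 without the 2 farthest mice. Several markers thus moved with the same genes. Nnat went with the progenitor score at 0.86 (Spearman 0.90, exact permutation p = 0.0069 and 0.0087, adjusted 0.083 and 0.138) and at 0.66 without the 2 farthest mice. It went with the endothelial score at 0.86 too (Spearman 0.60, exact permutation p = 0.0347 and 0.156, adjusted 0.150 and 0.391), and at 0.47 without the 2 farthest mice. Peg3 and Plagl1 went with the endothelial score at 0.77 and 0.76 (Spearman 0.62 and 0.76). Their exact permutation p-values were 0.0156 and 0.0382 for Pearson (adjusted 0.094 and 0.150). For Spearman they were 0.113 and 0.066 (adjusted 0.338 and 0.238). Without the 2 farthest mice the Pearson correlations were 0.43 and 0.59. Peg10 went with the adipocyte score at 0.77 (Spearman 0.76, exact permutation p = 0.0295 and 0.0434, adjusted 0.150 and 0.223) and at 0.86 without the 2 farthest mice. Sgce and Plagl1 went with the adipocyte score too, at Pearson correlations of 0.85 and 0.82 (exact permutation p = 0.0417 and 0.0521, adjusted 0.150 and 0.171). Their Spearman correlations were 0.76 and 0.62, and without the 2 farthest mice the Pearson ones were 0.55 and 0.36. Igf2 went with the macrophage score at 0.81 (Spearman 0.83, exact permutation p = 0.0122 and 0.0174, adjusted 0.088 and 0.138) and at 0.91 without the 2 farthest mice. Of 36 such relations 10 had an unadjusted p under 0.05 and 0 passed adjustment. How often other tested genes reach this with the same scores was not computed. Adipocyte scores were -0.08 to 0.18 in prednisolone mice and -0.27 to 0.14 in vehicle mice, with 11 of 13 markers higher and 2 lower. Progenitor scores were -0.15 to 0.23 in prednisolone mice and -0.29 to 0.23 in vehicle mice, with 8 markers higher and 5 lower. Endothelial scores were -0.48 to 0.44 in prednisolone mice and -0.51 to 0.36 in vehicle mice, with 1 of 9 markers higher and 8 lower. Over all tested genes, 54.6% were higher. The parts of cell makeup in the group differences and of epididymal transcripts in these marker correlations were not tested.

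Predicted genes, Rik clones, olfactory and vomeronasal receptor genes and small RNAs were left out of the tested genes for a ranking. From the rest, those with deviations most similar to 3 of the growth genes were taken by Pearson correlation over the 8 mice. They are a description without a test. For Peg10 these were Cxcl11, Tll2, Tex264, Cyb5r3 and Cgnl1, with correlations of 0.980 to 0.987. For Mest they were Proz, Rhot2, Rnpep, Tatdn2 and Scfd2 in that ranking, each lowest in vehicle mice 3 and 4, as Mest is, and with residual SDs of 0.04 to 0.12 against 0.52 for Mest. For Peg3 they were Tnfsf10, Gbp4, Pink1, Adm and Tor1aip1 (0.972 to 0.992), each lowest in prednisolone mouse 3. These are the top of a ranking over 8 mice and the 14787 tested genes less those left out. No correlations are given for Mest because its vehicle mice fall into clusters.

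Imprinted genes outside the set were divided in direction. Of 39 tested genes, 23 were higher and 16 lower with prednisolone, with a median difference of 0.06 beside 0.018 over all tested genes. None passed the limma adjusted threshold, 1 was higher and 1 lower at an unadjusted p under 0.05, and these rates are 3.37% and 2.33% over the whole table. These 2 were Tfpi2 and the chloride channel Ano1, which read 8.02, 8.86, 8.22 and 8.34 in prednisolone mice, against 9.54, 8.42, 9.25 and 8.94 in vehicle mice (-0.68 ± 0.26, limma adjusted p = 0.768). The next lowest p belonged to Tssc4. Paternally expressed genes were 7 higher and 5 lower, with a median of 0.05, and maternally expressed genes 14 higher and 9 lower, with a median of 0.13.

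**Figure D4:**
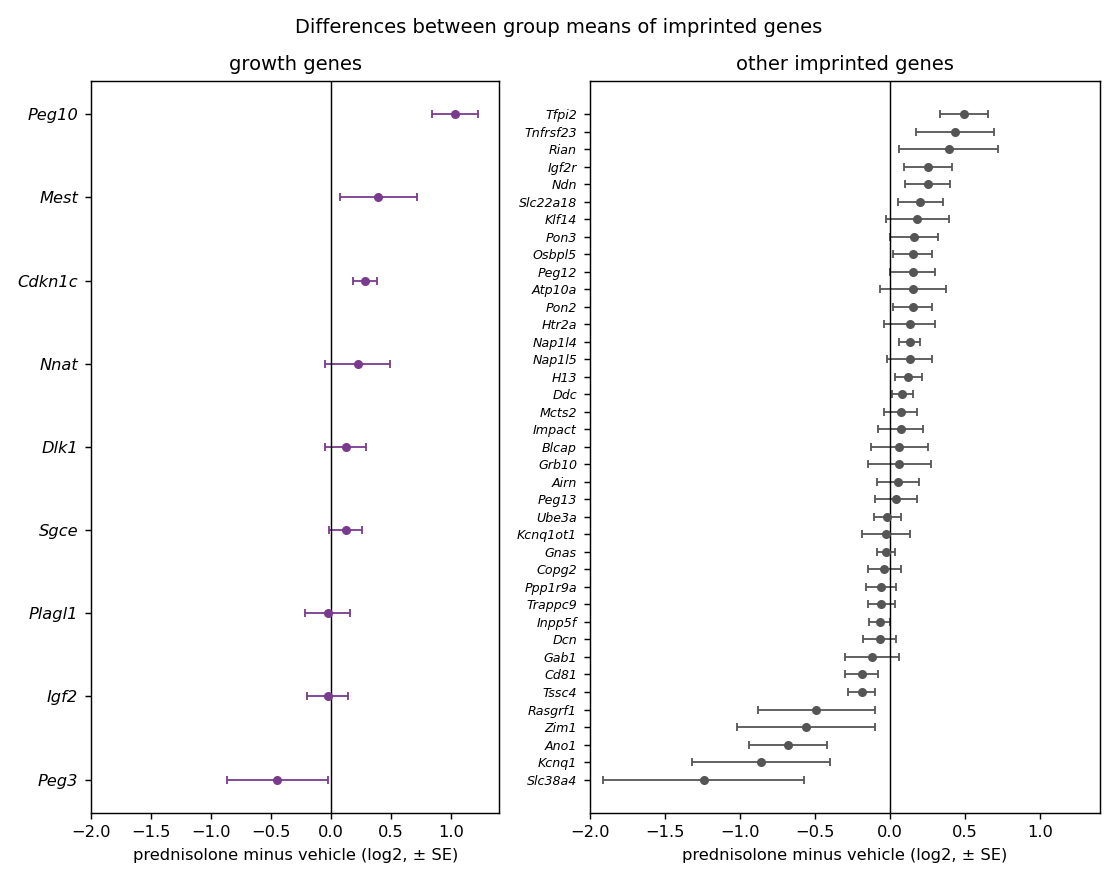
Prednisolone minus vehicle difference (log2) with its standard error for the 9 growth genes (left) and the 39 other tested imprinted genes (right), n = 4 mice per group. Peg10 at 1.03 lies above every other gene shown, and the wide negative bars of Slc38a4 and Kcnq1 belong to genes high in vehicle mice 1 and 4.

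Of the proteins that keep imprinted alleles silent, Zfp445, a zinc finger protein that acts beside ZFP57, read 8.44, 8.55, 8.53 and 8.50 in prednisolone mice, against 8.73, 8.64, 8.74 and 8.89 in vehicle mice. The groups did not overlap, and the difference of -0.24 ± 0.08 did not pass (limma adjusted p = 0.768). Of 7 tested genes of this list 2 were higher and 5 lower, and in Zfp445 and the insulator protein Ctcf (-0.13 ± 0.07) the groups did not overlap and prednisolone was lower, beside 1.39% of all tested genes. The testis paralog of CTCF, Ctcfl, differed by 0.30 ± 0.13 with the same adjusted p.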

How the data were processed

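RNA of each mouse (100 ng) was hybridised to a Mouse Gene 2.0 ST array, per the labels' protocols. Values deposited by the authors are log2 expression after RMA (robust multiarray averaging), with Expression Console named in the submitters' processing notes, which also name Partek 6.6 with no role. RMA equalises array distributions, removes shifts common to an array and compresses low signal. The build and annotation version were not given in the sources used here. Of 41345 probe sets, 23521 had 1 gene symbol in GEO's platform annotation, 1814 several and 16010 none, and 23328 matched RefSeq of GRCm38.p6 by Entrez identifier, with 0 symbols changed. Only probe sets with 1 symbol were used. The dimmest 33.3% of genes by mean (log2 under 5.82) were left out. Groups were compared by limma 3.58.1 in R 4.3.3 (lmFit, eBayes, Benjamini-Hochberg over 14787 genes, threshold 0.05), tested on simulated data. No arrays were identical (pairwise correlations 0.879 to 0.986). Same-numbered mice of the 2 groups were not taken as pairs. The genes and lists were chosen with earlier results of these data known. Text names all growth genes, imprinted neighbours, other imprinted or neighbouring genes with unadjusted p under 0.05 or the 3 lowest, and the 2 lowest p in each other list. Further genes are named as list members or as examples chosen after their values were seen, such as Slc38a4, Npr3, Pon1 and Ctcf. Marker scores average tested markers after centring on 8 arrays. Promoter windows are from RefSeq. Alternatives changed the filter, normalization, probe set, variance model, array weights, block, epididymal transcripts and single mice. Limma p-values weigh a group difference against the spread between these mice, and permutation p-values rank a correlation among orders of these mice.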

Additional observations from a re-analysis of the deposited data

Results flagged for a closer look

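In groups of 4 mice, a mouse was marked when its gap to the nearest other mouse, divided by the range of the group, exceeded Dixon's critical value. Of 90 groups examined (45 genes named by the rules), 7 were marked, where chance marks about 5% of groups. Nnat in vehicle mouse 1 read 10.99, against 12.03 to 12.07 in the other vehicle mice. The Gag-like family member Rtl8c read 8.56 in the same mouse, against 9.51 to 9.60. In prednisolone mouse 3, Zim1 read 5.62 against 7.29 to 7.34, Klf14 read 7.12 against 7.57 to 7.65, and the CDK inhibitor Cdkn2b read 8.76 against 8.30 to 8.36. Osbpl5 read 7.65 in prednisolone mouse 2, against 7.84 to 7.87, and 8.03 in vehicle mouse 2, against 7.50 to 7.54.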

How the results depend on the processing

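No gene passed the adjusted threshold under any of the 19 alternatives, and the lowest adjusted p over all of them was 0.0512, with the epididymis score as a covariate. The median difference of the 9 growth genes lay between 0.01 and 0.22 under the alternatives that kept all groups whole or left out the 3 mice of high epididymis score, and between -0.01 and 0.25 without single mice. The number of genes higher was 4 to 8 without single mice. Plagl1 and Igf2, both at -0.03, became 0.05 and 0.07 with array weights, ran from -0.19 to 0.13 and from -0.13 to 0.08 without single mice, and were above 0 without prednisolone mouse 2, vehicle mouse 2 or vehicle mouse 3. A stricter limit for dim genes left out Igf2 and Dlk1, and the probe set of largest variance for Plagl1 fell under the filter, so these have no value there. Same-numbered mice had correlations of deviations of -0.578 to 0.130 and share only a number. With the replicate number as a block 0 genes passed, and 504 had an unadjusted p under 0.05, against 842 without it. That count was 1980 with array weights, 1284 with the epididymis score as a covariate, 497 without the 3 mice of high epididymis score and 436 to 1590 without single mice. Without those 3 mice the difference turned to 0.08 for Copg2, -0.13 for Blcap, -0.14 for Rian, -0.06 for Rtl8c and 0.10 for Plag1, and with array weights to 0.06 for Igf1. Without single mice it crossed 0, from -0.11 to 0.17 for Blcap, -0.10 to 0.11 for Kcnq1ot1, -0.01 to 0.21 for Rtl5, -0.11 to 0.07 for Igf1, -0.13 to 0.04 for Copg2, -0.06 to 0.36 for Rtl8c and -0.16 to 0.01 for Plag1. The cause was not tested. The alternatives for genes outside the set and for correlations were added after the data were seen.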

Other observations

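MicroRNA genes lie inside 3 of the 10 listed genes in RefSeq. Mir483, inside Igf2, read 7.98, 7.95, 8.34 and 8.21 in prednisolone mice, and 7.64, 8.14, 8.03 and 8.43 in vehicle mice. Mir335, inside Mest, was below the limit for dim genes, with 4.14, 4.03, 3.56 and 4.81 in prednisolone mice, and 4.45, 4.12, 4.10 and 4.36 in vehicle mice, and did not show the vehicle pairs of Mest. Mir675, inside H19, had no value. A second Plagl1 probe set, also dim, read 4.91, 5.14, 4.46 and 4.91 in prednisolone mice, and 4.53, 5.77, 4.85 and 5.01 in vehicle mice, with vehicle mouse 2 highest as in the brighter probe set.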
